A study of Gallus gallus with 48 samples.

Results

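The 2 fatty acid binding protein probes H-FABP and L-FABP were followed among the 20 gene probes of a small oligonucleotide panel hybridised with chicken liver RNA. They were taken by name from the authors' processed log2 table. The birds were male Beijing-You chickens, an indigenous breed, sampled at 6, 8, 10 and 12 weeks of age, and no treatment is named. Each age had 12 samples, 6 labelled with Cy5 and 6 with Cy3, and every sample was hybridised alone to its own sub-array, with 48 samples in all. Samples 5 and 8 of 8 weeks are listed by the submitters as technical replicates. They were averaged in the limma fits, the permutation test of the probe difference and the level summaries by age, which left 47 units. Counts of samples and their tests, summaries by dye and correlations kept them as 2 samples. The other samples are listed as biological replicates.

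Fatty acid binding proteins are small cytosolic proteins that carry long-chain fatty acids, which are poorly soluble in water, between membranes and the enzymes that store or oxidise them. The liver form, L-FABP, is abundant in hepatocytes and takes up fatty acids and other lipid ligands. The heart form, H-FABP, is best known from cardiac and skeletal muscle, where it serves fatty acid oxidation. In the RefSeq gene table of the chicken assembly GRCg7b, H-FABP is a synonym of FABP3 and L-FABP a synonym of FABP1. The probes were matched to these genes by name alone. The table also lists LBFABP, the liver basic form, and without a probe sequence it was not settled which liver form the L-FABP probe detects.

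H-FABP was measured in more samples than L-FABP. In the authors' table H-FABP had a value in 45 of the 48 samples and L-FABP in 37. Over the 20 gene probes this number ran between 14, for OB(Mus), and 48, for Pyr-kin. At 6, 8, 10 and 12 weeks H-FABP was measured in 12, 11, 11 and 11 of 12 samples. L-FABP was measured in 8, 9, 9 and 11 of 12 samples at the same ages. H-FABP had a value in 23 of 24 Cy5 samples and 22 of 24 Cy3 samples, and L-FABP in 18 of 24 Cy5 samples and 19 of 24 Cy3 samples. Neither count differed between ages beyond what permuting the ages within each dye gave (permutation p = 0.634 for L-FABP and 1 for H-FABP, both 1 after adjustment over 20 genes). By age 0% of the 20 genes passed, and 1 had an unadjusted p under 0.05. No difference between dyes passed (Fisher's exact test, two-sided, p = 1 for both), where 0% of genes passed, with 6 under an unadjusted 0.05.

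A value in the table meant that a spot had reached a fixed brightness, not that it stood clear of its local background. The deposited values were recovered from the scanner intensities as the log2 of the net spot signal, less a corn offset, divided by 1 scale factor per sample. The corn offset was the mean of the sample's corn spots above 0, and nothing was subtracted where no corn spot was above 0. Each probe was printed as 2 spots, and a spot entered the table when its signal reached 300 scanner units. All 45 H-FABP values rested on both spots. Of the 37 L-FABP values 27 rested on both spots and 10 on a single one.

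The excess of a spot was divided by the scanner's SD of its local background and averaged over both spots. Against a limit of 2 SD, H-FABP was above background in 25 samples and L-FABP in 13, all of them samples with a value in the table. Over the 20 gene probes this count ran between 1, for OB(Mus), GH and IGF-2, and 35, for Pyr-kin and UCP. The other 20 measured H-FABP samples and 24 measured L-FABP samples were under that limit. A probe under the limit is not thereby without signal. In sample 3 of 12 weeks the L-FABP spots stood at 1737 and 1804 units, at 0.44 SD. By age, H-FABP exceeded the limit in 7, 5, 7 and 6 samples from the youngest to the oldest. L-FABP exceeded it in 4, 4 and 5 samples at 6, 8 and 10 weeks and in 0 of 12 at 12 weeks. This distribution over ages did not pass (permutation p = 0.135, adjusted p = 1, with 0% of the 20 genes called and 1 under an unadjusted 0.05). L-FABP therefore had its largest number of table values at the age at which it never exceeded the background limit. Neither of these counts differed between ages past the threshold. The 0 at 12 weeks was not particular to L-FABP. It was shared by G-S-T, Spot14b, AMPKg2, ACC, OB(Mus), GH and IGF-2, while the remaining probes exceeded the limit there in at least 1 sample.

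The cell type markers on the panel were few. Apo-B, the apolipoprotein that hepatocytes secrete with lipid, is the other hepatocyte marker, and it had a value in 36 samples and was above background in 5. LPL and OB(Mus), which were chosen as adipocyte markers, had values in 45 and 14 samples and were above background in 16 and 1. Whether these probes mark fat cells in chicken liver was not tested. GH, a pituitary hormone, had a value in 26 samples and was above background in 1. For muscle, H-FABP itself was the marker chosen. AMPKg3, an AMP-activated kinase subunit best known from skeletal muscle, had a value in 41 samples and was above background in 19. UCP, whose avian form is known from muscle, had a value in 47 samples and was above background in 35. The part of other cell types in the H-FABP level was not tested, and cell number cannot be told from RNA per cell.

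L-FABP was lowest on average at 12 weeks in the authors' table, and no age difference of it passed after adjustment. At 6 weeks L-FABP lay between 6.75 and 12.57 in the 8 samples measured, with a median of 9.81 (log2, authors' table). At 8 weeks its 8 units lay between 7.67 and 13.20, with a median of 10.64. At 10 weeks the 9 samples lay between 7.49 and 14.39, with a median of 10.18. At 12 weeks the 11 samples lay between 6.10 and 11.28, with a median of 8.18. The ranges of all 4 ages overlapped, and the spread within an age exceeded 5 log2 units at every age.

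The means were 9.75 ± 2.36 at 6 weeks, 10.60 ± 1.70 at 8 weeks, 10.17 ± 2.02 at 10 weeks and 8.53 ± 1.58 at 12 weeks (SD, n = 8, 8, 9 and 11 units). With dye as a term, limma gave an F test p of 0.0577 (adjusted p = 0.563). The slope was -0.25 ± 0.13 log2 units per week (SE, limma p = 0.0477, adjusted p = 0.570). Of the 20 genes 0% passed the F test and 0% passed the slope test, with 1 unadjusted p under 0.05 in each, which for the slope was that of L-FABP. In order of its mean, L-FABP was highest at 8 weeks, then at 10, 6 and 12 weeks, and no neighbours in that order differed beyond their spread.

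The L-FABP difference furthest from 0 was that of 12 minus 8 weeks, at -2.09 ± 0.78 on the log2 scale (SE, limma p = 0.00959, adjusted p = 0.576). Its 95% interval of -3.65 to -0.52 was not adjusted for the 120 tests or for the choice of this pair. The difference of 12 minus 10 weeks was -1.42 ± 0.77 and that of 12 minus 6 weeks was -1.30 ± 0.79, or -0.85 without sample 7 of 6 weeks. None of the 6 age pairs passed for either probe, beside 0% of 120 pairwise tests over the panel, of which 8 had an unadjusted p under 0.05. The panel moved the same way: the median of all 20 genes was -0.89 for 12 minus 8 weeks, with 20 of 20 genes below 0, and -0.74 for 12 minus 6 weeks, with 18 of 20 below 0. Relative to each sample's median over its measured genes, the L-FABP difference of 12 minus 8 weeks was -0.91 ± 0.58 and that of 12 minus 6 weeks -0.99 ± 0.58 (SE; limma, adjusted p = 0.979 for both). In the scanner values the difference of 12 minus 8 weeks was -0.56 ± 0.52 with normexp and -0.53 ± 0.71 with plain subtraction (SE). That of 12 minus 6 weeks was -0.40 ± 0.50 and -0.14 ± 0.69. Counted from the lowest, the L-FABP slope was number 2 of 20 in the table and number 1 relative to the sample median, at -0.17 per week. In the scanner values it was number 4 with normexp, at -0.08 per week, and 10 with plain subtraction, at -0.05.

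H-FABP showed no age difference past the threshold. Its lowest, median and highest values were 7.59, 10.43 and 13.11 at 6 weeks, and 9.17, 10.90 and 12.15 at 8 weeks. They were 8.92, 11.52 and 12.30 at 10 weeks, and 8.21, 9.97 and 12.08 at 12 weeks. All 4 ages overlapped. The means were 10.67 ± 1.66, 10.70 ± 1.14, 10.91 ± 1.24 and 10.10 ± 1.53 at 6, 8, 10 and 12 weeks (SD, n = 12, 10, 11 and 11 units). The order of the means ran 10, 8, 6 and 12 weeks, with no neighbours apart beyond their spread.

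In the limma fit with dye as a term the F test p of H-FABP was 0.670 (adjusted p = 0.832). Its slope was -0.07 ± 0.10 log2 units per week (SE; limma, adjusted p = 0.758). The difference of 12 minus 6 weeks was -0.54 ± 0.62, with a 95% interval of -1.78 to 0.69, and it was -0.18 ± 0.30 in the scanner values with normexp. It was -0.32 without sample 7 of 12 weeks, -0.35 without sample 6 of 6 weeks and -0.85 without sample 1 of 6 weeks. Relative to the sample median this difference was 0.07 ± 0.35, so its sign was not kept. Centring lowered the residual SD of H-FABP to 0.77, against 1.41 for the table's values, and that of L-FABP to 1.37, against 1.87. An interaction of age and dye passed for neither probe (limma p = 0.498 for L-FABP and 0.534 for H-FABP, adjusted p = 0.940 for both).

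**Figure D1:**
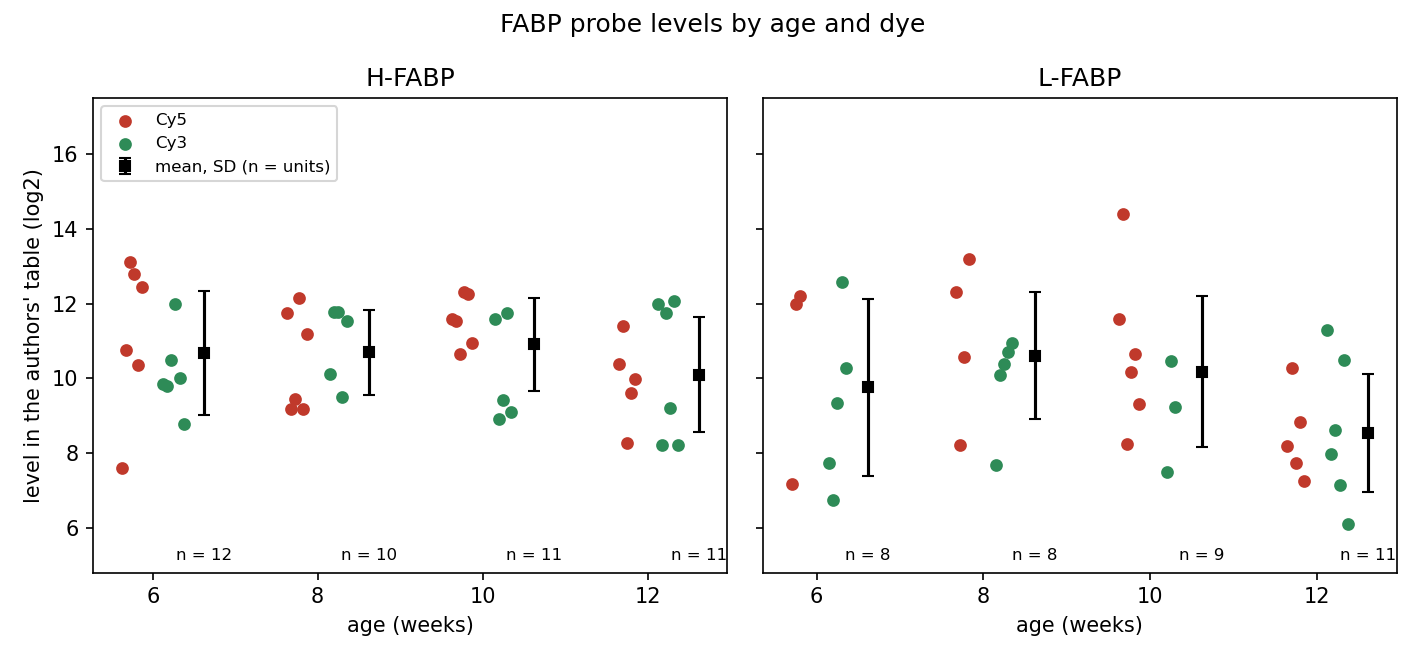
Each point is 1 sample's H-FABP (left) or L-FABP (right) level in the authors' table (log2) against age in weeks, coloured by dye, with Cy5 left of Cy3 at each age. Black squares are the means with SD over units; L-FABP at 12 weeks averaged 8.53 ± 1.58, and the ages overlap in both panels.

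The signal of H-FABP exceeded that of L-FABP in most samples, but these are signals of different probes and their difference is not a ratio of transcripts. In the 37 samples with both values, H-FABP minus L-FABP had a median of 1.25 log2 units and ran between -2.87 and 3.14. L-FABP was the higher signal in 8 samples, namely 3 at 6 weeks, 3 at 8 weeks, 2 at 10 weeks and 0 at 12 weeks. The lowest, median and highest differences were -1.84, 0.78 and 3.05 at 6 weeks and -2.01, 0.94 and 2.44 at 8 weeks. They were -2.87, 1.62 and 2.52 at 10 weeks and 0.24, 1.60 and 3.14 at 12 weeks. The 4 ages overlapped. In 24 of the 29 samples with the higher H-FABP signal, L-FABP did not exceed the 2 SD limit, so these differences rest on an L-FABP value under it. Among them were all 11 at 12 weeks, and 4, 5 and 4 samples at 6, 8 and 10 weeks. H-FABP was itself under that limit in some of these samples. At 12 weeks it exceeded the limit in 6 of the 11.

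The mean difference was 0.49 ± 1.71 at 6 weeks, 0.48 ± 1.57 at 8 weeks, 0.86 ± 1.82 at 10 weeks and 1.57 ± 0.96 at 12 weeks (SD, n = 8, 8, 9 and 11 units). No difference among the ages passed when they were permuted within each dye (permutation test of the F statistic, p = 0.327, 100000 resamples). With a linear slope as the statistic, chosen after seeing the data, the permutation p was 0.0765. In Cy5 samples the median was 1.13 (n = 18) and in Cy3 samples 1.43 (n = 19).

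The 8 samples with more L-FABP than H-FABP signal were unevenly spread over slides. Slide 5 held 4 of them among its 5 samples, 2 at 6 weeks and 2 at 10 weeks, slide 7 held 2, and slides 4 and 9 held 1 each. No 12-week sample lay on slide 5. Slides were inferred, since the sample labels name none, and samples with the same scan date and time were taken as 1 slide. A slide scanned more than once would be split by this. Slide 5 was left out after seeing these differences, so the values without it are a description only. The difference of 12 minus 6 weeks was then 0.35, against 1.07 with slide 5, and the permutation p over ages was 0.127. In each of the 8 samples L-FABP was above background, by 2.84 to 14.74 SD. The highest L-FABP value of the study, 14.39 in sample 3 of 10 weeks, was one of them, beside an H-FABP value of 11.52.

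**Figure D2:**
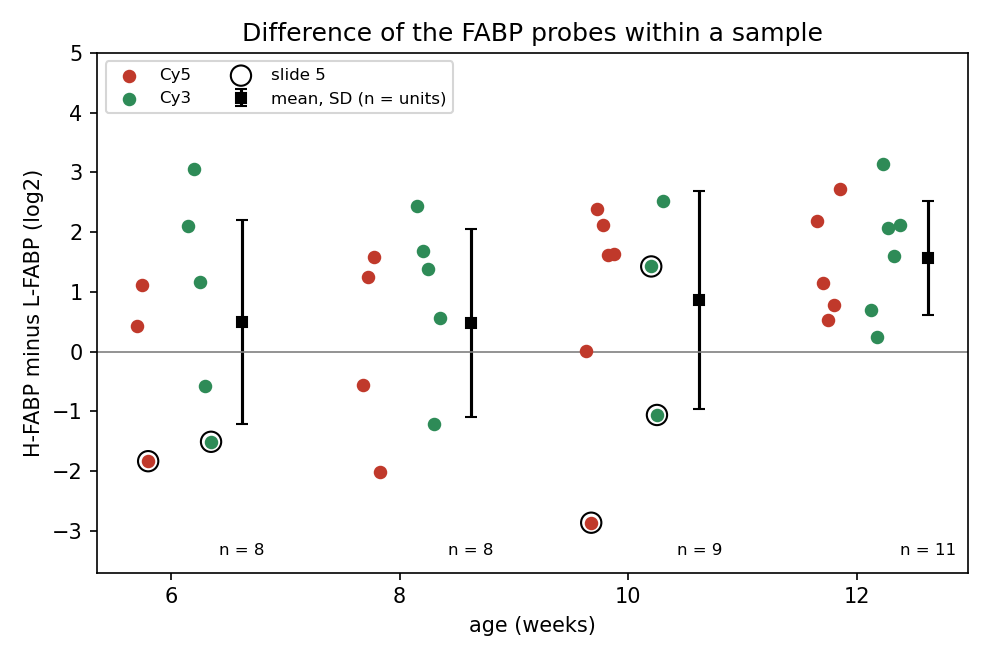
Each point is H-FABP minus L-FABP (log2) in 1 sample with both values, against age in weeks, with Cy5 left of Cy3 and rings around the samples of slide 5; squares are means with SD over units. Points under the grey line at 0 are the 8 samples in which the L-FABP signal was higher, and none of them is at 12 weeks.

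Within slides the directions were mostly the same as over all samples. The slopes counted here were fitted on each slide without a dye term, with the technical pair kept as 2 samples. The slope of L-FABP over age was below 0 on 6 of the 7 slides that held it at more than 1 age, and above 0 on 1. For H-FABP it was below 0 on 6 of 9 slides and above 0 on 3. The slope of H-FABP minus L-FABP was above 0 on 6 of 7 slides and below 0 on 1. Some of these slopes rest on few samples, with both probes measured in 2 samples on slide 10 and in 3 each on slides 2 and 4. Over all samples 18 of 20 genes had a slope below 0, and the within-slide directions of the other genes were not counted. With slide as a block and dye as a term, the L-FABP slope was -0.26 ± 0.14 per week (SE). That of H-FABP was -0.06 ± 0.11 (SE), and neither passed (limma, adjusted p = 0.824 for both). With slide means removed and ages permuted within slides, chosen after seeing the data, the permutation p of H-FABP minus L-FABP was 0.256.

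In the authors' table the technical pair differed widely in both levels and little in their difference. H-FABP was 9.45 in sample 5 and 11.77 in sample 8, which are listed as the same extract. L-FABP was 8.20 in sample 5 and 10.39 in sample 8. The shifts between the scaled values were 2.33 for H-FABP and 2.19 for L-FABP. They include the authors' scaling, with scale factors of 5.37 for sample 5 and 0.70 for sample 8. Before scaling, the net H-FABP spots stood at 2750 and 4753 units in sample 5 and at 2477 and 2419 in sample 8. Those of L-FABP stood at 727 and 2437 units in sample 5 and at 966 and 910 in sample 8. The SD of single units at 8 weeks was 1.14 and 1.70. A difference of 2 values spreads more widely than single values, so these shifts are not shown to exceed the spread between birds. H-FABP minus L-FABP was 1.25 in sample 5 and 1.38 in sample 8. These are values of 1 pair, labelled with opposite dyes.

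Spots within a sub-array agreed more closely than samples did. The spots of H-FABP differed by a median of 0.17 log2 units (n = 45 samples), and those of L-FABP by 0.27 (n = 27). The SD of a single spot estimated from these pairs was 0.38 for H-FABP and 0.58 for L-FABP, against residual SDs between units of 1.41 and 1.87. These measures are unlike, since spots of a sample share its scale factor and the residual SDs include its spread between samples. Relative to the sample median the residual SDs were 0.77 and 1.37. The largest disagreement among the samples with both spots in use was 2.31 for H-FABP and 1.97 for L-FABP. They leave out the 10 samples in which a single L-FABP spot passed 300 units. The L-FABP spot disagreement and spot SD given here are therefore too low. In 3 of those 10 the other spot was at or below 0 after subtraction, and in the other 7 the spots differed by 0.74 to 2.31, with a median of 1.58. Saturated pixels, at 1 to 3 percent of a spot, were present in 6 L-FABP spots and no H-FABP spot.

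The authors' scaling moved with both probes. The scale factors spanned 32.2-fold, between 0.269 and 8.67, and the brightest of the 10 actin and Gapdh control probes lay between 12.12 and 13.14 in every sample after scaling. Since a spot needed 300 units before scaling, the lowest level that a sample could report differed between samples, with a median of 7.63 and a range of 5.11 to 10.12 (log2). Its median was 7.68, 7.96, 7.70 and 6.19 at 6, 8, 10 and 12 weeks, lowest at the age with the lowest FABP medians. Across samples the level correlated with this lowest reportable level at a Pearson r of 0.71 for H-FABP (n = 45) and 0.68 for L-FABP (n = 37), as a description, since both hold the same scale factor.

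The 11 missing L-FABP values therefore stand for different bounds, between 5.78 and 9.44, and the 3 missing H-FABP values for bounds between 5.90 and 9.25. The measured L-FABP values began 0.13 log2 units over their own sample's bound and had a median of 1.64 over it, while H-FABP values began 1.36 over it, with a median of 3.21. With the scale taken out, chosen after seeing the data, the L-FABP slope was -0.20 ± 0.09 per week and its 12 minus 6 weeks difference -1.22 ± 0.57 (SE). With missing values set to the lowest value of their sample they were -0.13 ± 0.12 and -0.94 ± 0.70. With the scale taken out and missing values placed at 300 units, also chosen after seeing the data, they were -0.05 ± 0.10 and -0.38 ± 0.62. None of these passed. With the missing L-FABP values at 300 units, again chosen after seeing the data, H-FABP minus L-FABP differed by -0.00074 between 12 and 6 weeks.

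**Figure D3:**
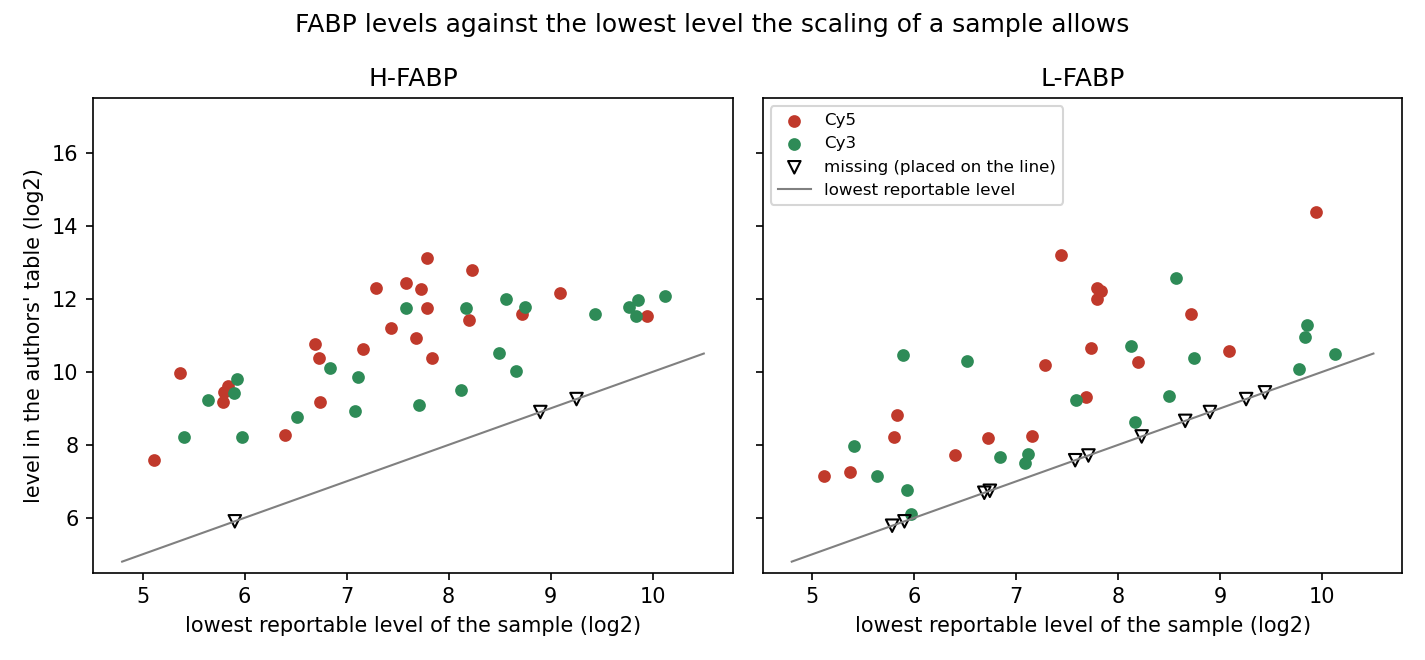
Each point is a sample's H-FABP (left) or L-FABP (right) level (log2, authors' table) against the lowest level its scale factor allowed (log2); the grey line marks equality and open triangles on it are missing values. H-FABP stayed at least 1.36 above the line where it was measured, while L-FABP reached to 0.13 of it and was missing in 11 samples.

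Both probes averaged higher with Cy5 in the table, and neither dye difference passed the threshold. L-FABP averaged 10.12 ± 2.15 in Cy5 samples (SD, n = 18) and 9.23 ± 1.78 in Cy3 samples (SD, n = 19). H-FABP averaged 10.82 ± 1.46 in Cy5 samples (SD, n = 23) and 10.36 ± 1.35 in Cy3 samples (SD, n = 22). With age as a term, Cy5 minus Cy3 was 1.04 ± 0.59 for L-FABP and 0.55 ± 0.45 for H-FABP (SE; limma, adjusted p = 0.323 and 0.635), where 20% of the 20 genes passed. With plain background subtraction of the scanner values the L-FABP coefficient was -0.11 ± 0.50 (SE). With slide as a block the L-FABP dye coefficient was 2.24 ± 0.68 and passed (SE; limma, adjusted p = 0.0236), as did 10% of the 20 genes. With the sample median removed as well, chosen after seeing the data, it was 1.22 ± 0.42 (SE). This did not pass (limma, adjusted p = 0.0548), where 5% of genes did. With the authors' scale taken out both passed, at 1.29 ± 0.43 for L-FABP and 1.03 ± 0.31 for H-FABP (SE; limma, adjusted p = 0.0128 and 0.00978), as did 35% of the genes. With missing values also at 300 units 60% of the genes passed, H-FABP among them at 1.08 ± 0.34, while L-FABP did not at 0.87 ± 0.44 (SE; limma, adjusted p = 0.00894 and 0.0871).

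H-FABP signal above background also occurred without the label. In the Cy5 channel H-FABP was above background in 12 of the 24 samples that carried Cy5 and in 8 of the 24 that did not (Fisher's exact test, two-sided, p = 0.380, adjusted p = 0.661). In the Cy3 channel the counts were 13 of 24 with the label and 4 of 24 without it (Fisher's exact test, p = 0.0145, adjusted p = 0.0529). L-FABP was above background in 7 of 24 samples with and 1 of 24 without Cy5, and in 6 of 24 with and 1 of 24 without Cy3 (Fisher's exact test, adjusted p = 0.132 and 0.243). Of the 40 tests of a gene in a channel 25% passed, none of them for an FABP probe. The corn probe, from a plant and so a negative control, was above background in 0 samples with and 0 without Cy5, and in 1 with and 0 without Cy3. With 2 SD required of each spot, the Cy3 counts of H-FABP were 10 with and 1 without the label, which passed (Fisher's exact test, adjusted p = 0.0292), as did 22.5% of the 40 tests. Its Cy5 counts were then 12 with and 6 without the label (Fisher's exact test, adjusted p = 0.338). At 3 SD on average over both spots, H-FABP counts were 11 with and 3 without Cy5, and 8 with and 1 without Cy3. Neither passed (Fisher's exact test, adjusted p = 0.0884 for both). At 2 SD on average over both spots, other genes exceeded the limit without the label more often. These were CPT-1 and OBR in 17 of 24 samples without Cy3 and Pyr-kin in 9 of 24 without Cy5.

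**Figure D4:**
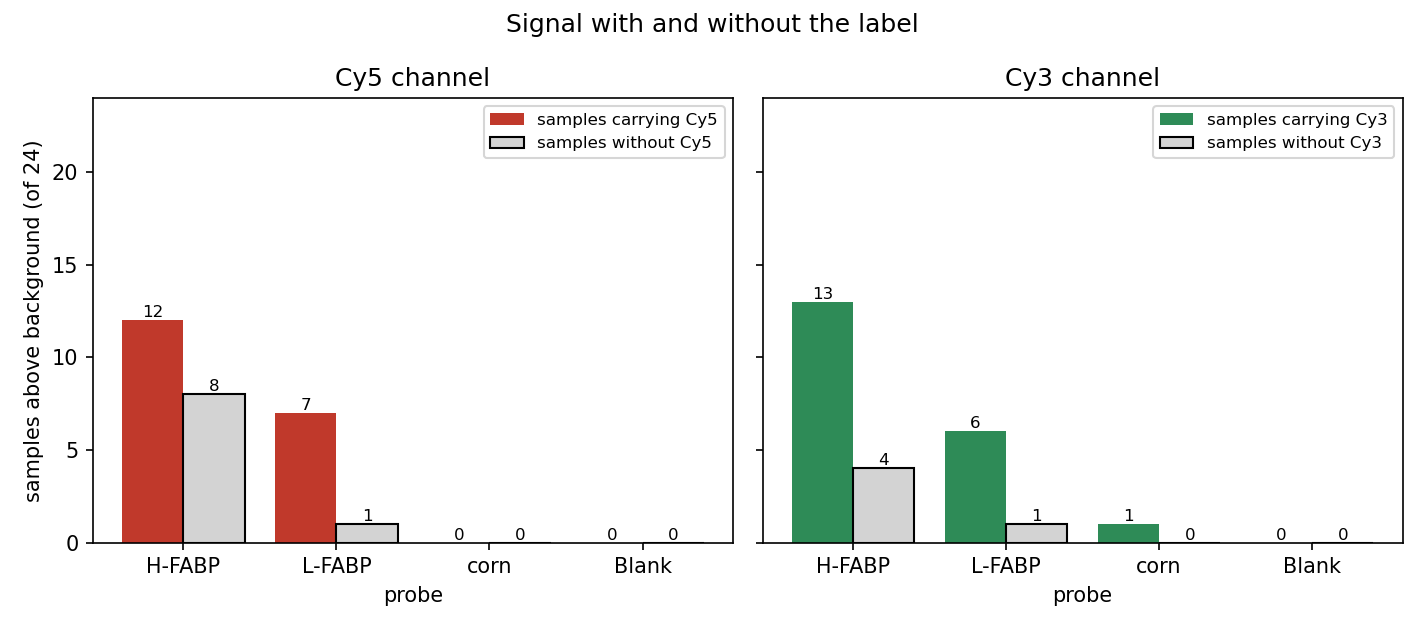
Bars count the samples of 24 in which a probe was above background by 2 SD in the Cy5 channel (left) and the Cy3 channel (right), with coloured bars for samples that carried the dye and grey bars for samples that did not. H-FABP reached 12 and 8 samples in the Cy5 channel and 13 and 4 in the Cy3 channel, while the blank stayed at 0.

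On the authors' scale the 3 probes most like each FABP were shared by both, and relative to the sample median 1 of 3 was shared. After removing the means of age and dye, H-FABP correlated highest with GH, growth hormone and above background in 1 of 48 samples, at a Pearson r of 0.84 (n = 26 samples), AMPKg2, a regulatory subunit of the AMP-activated kinase, at 0.79 (n = 27), and G-S-T at 0.79 (n = 30). L-FABP correlated highest with G-S-T at 0.81 (n = 25), GH at 0.76 (n = 23) and AMPKg2 at 0.73 (n = 21). These values share each sample's scale factor, and the median r over all partners was 0.70 for H-FABP (17 partners) and 0.59 for L-FABP (16 partners). Relative to the sample median the medians over partners were 0.21 and 0.01, and the highest were 0.36 for H-FABP, with Pyr-kin, and 0.52 for L-FABP, with GH.

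No pathway list on the panel held a gene that passed for age. The list of fatty acid transport and storage held both FABP probes, LPL, which releases fatty acids from lipoproteins, and Apo-B, and 4 of its 4 slopes were below 0, with a median of -0.10 per week. The slopes of 4 of 5 genes of fatty acid synthesis, 3 of 4 of oxidation and its regulators and 6 of 6 hormones and receptors were also below 0. Over all 20 genes 18 slopes were below 0, with a median of -0.10, and relative to the sample median 7 were below 0, with a median of 0.03. For dye, 0 of 4 genes of transport and storage passed. FAS, a fatty acid synthase probe, was 1.90 ± 0.54 higher with Cy5, and UCP, the uncoupling protein, was 1.29 ± 0.40 higher (SE; limma, adjusted p = 0.0123 and 0.0139). CPT-1, which admits fatty acids to the mitochondrion, fell by 1.84 ± 0.55 and OBR, the leptin receptor, fell by 1.25 ± 0.46 with Cy5 (SE; limma, adjusted p = 0.0123 and 0.0390).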

How the data were processed

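The log2 table deposited by the authors, in which 10000 codes a missing value, was the main source, and 480 of its 1536 values are missing. No source used here states its scaling, which was recovered from the scanner intensity files, which hold 64 spots per sample with background and the percent of pixels saturated, per the file headers, and 1055 of 1055 compared values matched within 1 unit plus 0.1%. This fixed the spot names. The rule of 300 units described 99.8% of 2976 spots, and the rule that set the scale was not found. Fits used limma 3.58.1 in R 4.3.3, gene by gene over measured units, with age and dye as terms, for all 20 genes. Adjustment was by Benjamini-Hochberg at 0.05, over 120 tests for age pairs. Scanner values, as an alternative, were corrected by normexp (offset 50). Permutation and Fisher's exact tests used Python 3.11.15 and scipy 1.17.1. Scripts were tested on simulated data. The members and lists were chosen with earlier results of these data known. Both FABP probes are described in full, and beside each the 3 probes with the highest r over at least 20 samples. Local background medians ran between 1142.5 and 15950 units per sample. The number of arrays limits the precision.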

Additional observations from a re-analysis of the deposited data

Results flagged for a closer look

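Signal in the channel of a dye that the sample did not carry lies outside the main measurement. It is listed here because both FABP probes exceeded the background limit there in more samples than the corn and blank probes, which did so in 0. H-FABP did so in 8 of 24 samples in the Cy5 channel and in 4 of 24 in the Cy3 channel. L-FABP did so in 1 of 24 in the Cy5 channel and in 1 of 24 in the Cy3 channel. The former was sample 10 of 6 weeks. Its L-FABP spots reached 6373 and 5024 units in the unlabelled channel, against -46 and 60 in the labelled one. With 2 SD required of each spot, L-FABP exceeded the limit in 0 of 24 samples in either channel, as did corn and blank. H-FABP then did so in 6 of 24 in the Cy5 channel and in 1 of 24 in the Cy3 channel. At 2 SD on average over both spots, other genes exceeded the limit more often. These were CPT-1 and OBR in 17 of 24 samples in the Cy3 channel and Pyr-kin in 9 of 24 in the Cy5 channel. The source of this signal was not tested.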

How the results depend on the processing

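Of 764 recomputed values 752 kept their direction and their side of the threshold, including all 554 that left out 1 sample. Some could not move, since leaving out a sample without a value for a probe left that probe's slope unchanged. A test that stayed short of the threshold also counted as kept, so the count is not a measure of stability. Leaving out 1 sample gave L-FABP slopes of -0.34 to -0.20 and H-FABP slopes of -0.12 to -0.03 per week. The differences of 12 minus 6 weeks ran between -1.82 and -0.85 for L-FABP and between -0.85 and -0.32 for H-FABP. The permutation p of the difference then ran between 0.193 and 0.475. Centred on the sample median, the H-FABP slope was 0.0103 and its 12 minus 6 weeks difference 0.0662, and with slide 5 left out as well, chosen after seeing the data, they were 0.0116 and 0.0162, against negative values in the table as deposited. The L-FABP dye coefficient was -0.11 with plain background subtraction and 2.24 with slide as a fixed block. With the sample median removed as well, chosen after seeing the data, it was 1.22 and not past the threshold. With the authors' scale taken out, chosen after seeing the data, the dye coefficients were 1.03 for H-FABP and 1.29 for L-FABP, and with missing values at 300 units as well that of H-FABP was 1.08, all past the threshold by limma, while that of L-FABP was then 0.87 and not past it. The H-FABP minus L-FABP difference of 12 minus 6 weeks was -0.39 with plain subtraction, against 1.07. With missing L-FABP at 300 units, chosen after seeing the data, it was -0.00074. With 2 SD in each spot, H-FABP was above background in 9 more samples with than without Cy3, past the threshold by Fisher's exact test. With sample number as a replicate block the slopes were -0.25 for L-FABP and -0.08 for H-FABP and no age call changed. The numbers share no stated source. Over 72 same-numbered pairs the median r was 0.008, and 27 pairs correlated over 0.1. In 5 of 72 comparisons the highest correlation was with the same number. The cause of these changes was not tested. L-FABP was above background in 13 of 48 samples and H-FABP in 25, so many of the values lie under the 2 SD limit.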
